A study of Mus musculus with 6 samples.

Results

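The results describe 10 genes of cytoplasmic mRNA decay in mouse BV2 microglial cells treated with IL-4: Zfp36, Zfp36l1, Zfp36l2, Zc3h12a, Elavl1, Dcp1a, Dcp1b, Dcp2, Xrn1 and Cnot1. They were found by matching the transcript accession of each probe to its gene symbol, which gave 12 of the 39429 non-control probes. Dcp1b and Elavl1 had 2 probes each and the other 8 genes had 1. All 12 probes were well above background on all 6 arrays. The set was proposed with results of these arrays in view, because Zfp36 was higher and Dcp1b lower with IL-4. For those 2 genes the comparison is therefore given as a description without a test. The other 8 were taken for their function, but they and the lists below were chosen with earlier results of these data known.

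BV2 is an immortalised mouse microglial line. The cells were plated on poly-L-lysine and received recombinant murine IL-4 at 10 ng/ml for 24 hr (3 samples) or PBS for 24 hr (3 samples), and the RNA of each sample was hybridised to its own single-colour Agilent array. The control is named untreated in the design text and PBS in the sample labels. Separate cultures are mentioned in neither, so the p-values cover only sample-to-sample spread that may be technical. By the scan records in the file headers, the 3 IL-4 arrays and PBS replicate 1 were scanned together as slide 1, and PBS replicates 2 and 3 as slide 2. For the 10 genes each difference is therefore also given within slide 1, for some only in a figure. There it rests on a single PBS array. The limma fit of slide 1 alone takes that array to vary like the IL-4 arrays, and is among the alternatives.

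On each array 34655 to 38650 of the 39429 probes exceeded background clearly, and none was saturated. The small number of arrays, 3 a group, limits the precision. All 8 microglia and macrophage markers examined were well above background on the 6 arrays. Of these, 2, Aif1 and Tyrobp, passed as lower with IL-4 (adjusted p = 0.036 and 0.04, limma), as did 2.9% of all genes. Their log2 differences, IL-4 minus PBS, were -0.72 and -0.95 over all arrays, but -0.49 and -0.54 within slide 1. Of 11 markers of astrocytes, neurons, oligodendrocytes and T cells, 10 were well above background on all arrays. None of the 11 passed the test, with adjusted p-values from limma between 0.057 and 0.86. Most probes on each array had that flag, so it does not tell cell types apart, and BV2 is a cell line. What the signal of these markers stands for was not tested.

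An mRNA is usually degraded after its poly(A) tail is shortened, its cap removed and its body digested from the 5′ end. AU-rich elements in the 3′ untranslated region recruit proteins that set the speed of this process. Tristetraprolin, the product of Zfp36, and its relatives bind such elements through paired zinc fingers and bring in the CCR4-NOT deadenylase, and in macrophages tristetraprolin is known for limiting the output of cytokine mRNAs such as Tnf. Regnase-1, the product of Zc3h12a, cuts stem-loops in inflammatory mRNAs, whereas HuR, the product of Elavl1, binds AU-rich elements and generally stabilises the transcript. Dcp2 is the decapping enzyme, Dcp1a and Dcp1b are alternative forms of its activating partner, Xrn1 is the cytoplasmic exonuclease that follows, and Cnot1 is the scaffold of CCR4-NOT.

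The log2 differences of the Zfp36 family had opposite signs, but Zfp36 was chosen for its rise and the other members missed the threshold. Groups that do not overlap, as in this family, were found for 38.5% of all genes. Signals are given as log2 processed signal minus its 75th percentile on the same array, a scale on which 1 unit is a 2-fold change of a probe's signal. Zfp36 had 0.83, 0.57 and 0.57 on the IL-4 arrays, against 0.08, -0.10 and -0.14 on the PBS arrays. Every IL-4 array lay above every PBS array, and the highest PBS value was that of replicate 1, the array on slide 1. The log2 difference, IL-4 minus PBS, was 0.71 ± 0.12 (SE of the limma fit, n = 3 each), or 1.64-fold higher with IL-4. Against PBS replicate 1 alone the 3 IL-4 arrays were higher by 0.75, 0.49 and 0.49, with a mean of 0.57, or 1.49-fold.

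Zfp36l1, which encodes the tristetraprolin relative BRF1, had 0.30, 0.43 and 0.61 on the IL-4 arrays, against 0.83, 1.00 and 1.15 on the PBS arrays. The groups did not overlap, in the opposite order to Zfp36. The log2 difference was -0.55 ± 0.13 and missed the threshold (adjusted p = 0.054, limma). Within slide 1 it was -0.38, with IL-4 arrays lower than PBS replicate 1 by 0.53, 0.40 and 0.21. Zfp36l2, the third family member, had 2.05, 2.02 and 1.72 on the IL-4 arrays, against 2.29, 2.55 and 2.47 on the PBS arrays. Again every IL-4 array lay below every PBS array, and PBS replicate 1 was the lowest of the PBS arrays. Its log2 difference was -0.50 ± 0.13 over all arrays and -0.36 within slide 1, and it too missed the threshold (adjusted p = 0.058, limma).

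Ratios within an array do not depend on the scaling between arrays, although their own level depends on the probes and is not read here. The log2 ratio of Zfp36 to Zfp36l1 was 0.54, 0.14 and -0.05 on the IL-4 arrays, against -0.74, -1.10 and -1.29 on the PBS arrays. The ratio thus differed by 1.26 between the groups, a 2.39-fold shift, and by 0.96 within slide 1. The log2 ratio of Zfp36 to Zfp36l2 averaged -1.27 ± 0.16 with IL-4 and -2.49 ± 0.24 with PBS (SD, n = 3 each), a difference of 1.21. Between Zfp36l1 and Zfp36l2 the ratio averaged -1.49 ± 0.34 with IL-4 and -1.44 ± 0.12 with PBS, and the groups overlapped. These ratios are descriptions, since Zfp36 was chosen for its difference.

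**Figure D1:**
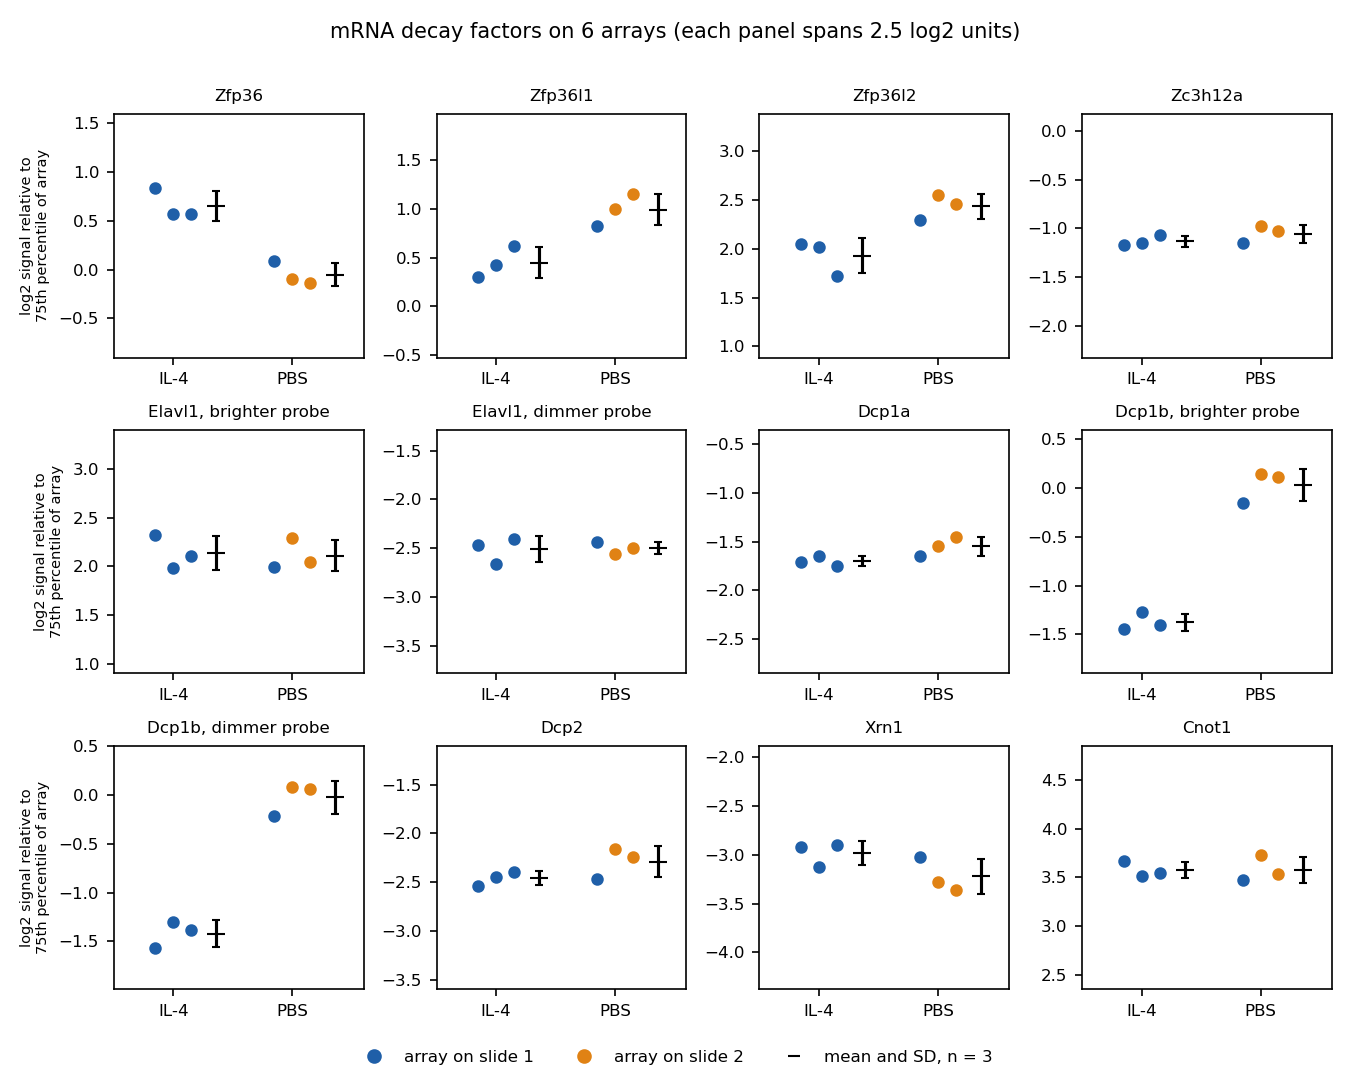
Each panel shows 1 probe, with log2 signal minus the 75th percentile of that array on the vertical axis, IL-4 on the left and PBS on the right, points coloured by slide and black bars for the mean and SD of 3 arrays. The groups do not overlap for Zfp36, Zfp36l1, Zfp36l2 and both probes of Dcp1b, and they overlap in the other panels.

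The 250 bases before the RefSeq transcription start (GRCm38.p6) are shown for Zfp36 and Zfp36l1 because these family members had separated groups in opposite directions. Zfp36l2 also had separated groups, but no window was matched for it. They lie at chr7:28379229-28379478 and chr12:80113014-80113263, both on the minus strand, and are written 5′ to 3′ along the gene. Capitals mark matches on either strand to the GAS palindrome TTCNNNGAA of STAT factors, the STAT6-type palindrome TTCNNNNGAA, the EGR element GCGNGGGCG, the AP-1 element TGANTCA, the TATA box TATAAA and the CArG box of serum response factor.
Zfp36: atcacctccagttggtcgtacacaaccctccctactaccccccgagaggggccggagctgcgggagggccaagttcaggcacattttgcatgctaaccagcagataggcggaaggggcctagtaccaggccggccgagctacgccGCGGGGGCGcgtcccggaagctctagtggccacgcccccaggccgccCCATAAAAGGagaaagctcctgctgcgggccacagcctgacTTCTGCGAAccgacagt
Zfp36l1: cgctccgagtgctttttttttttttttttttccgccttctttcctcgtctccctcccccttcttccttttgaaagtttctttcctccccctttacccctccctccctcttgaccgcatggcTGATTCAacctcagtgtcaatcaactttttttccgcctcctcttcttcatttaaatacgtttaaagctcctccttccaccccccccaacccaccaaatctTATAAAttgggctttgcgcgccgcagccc
In Zfp36 the capitals are an EGR element 105 to 97 bases before the start, a CArG box at 58 to 49 and a GAS palindrome at 17 to 9. A GC box, GGGCGG, read on the opposite strand at 63 to 58 and left in lower case, shares 1 base with the CArG box. The GAS palindrome also had a match 181 to 173 bases before the start of Dcp1a, a gene whose groups overlapped. It had none in the windows matched for other members. In Zfp36l1 the capitals are an AP-1 element at 129 to 123 and a TATA box at 29 to 24. Of 32851 such windows in the RefSeq table, 7.02% held the GAS palindrome, 5.85% the STAT6-type palindrome, 4.70% the EGR element, 6.75% the AP-1 element, 12.4% the TATA box, 1.47% the CArG box and 32.7% the GC box. Binding of any factor was not measured.

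The other 2 regulators of mRNA stability lay close to 0. Zc3h12a had -1.17, -1.16 and -1.07 on the IL-4 arrays, against -1.16, -0.98 and -1.03 on the PBS arrays, a log2 difference of -0.08 ± 0.10 (95% interval -0.31 to 0.15). It was 0.02 within slide 1. The brighter probe of Elavl1 had 2.32, 1.98 and 2.10 on the IL-4 arrays, against 1.99, 2.29 and 2.04 on the PBS arrays. Its log2 difference was 0.03 ± 0.13 (95% interval -0.28 to 0.33), and that of the dimmer probe was -0.01 ± 0.11. Neither gene passed, with adjusted p = 0.58 for Zc3h12a and 0.90 for the brighter probe of Elavl1 (limma).

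Dcp1b, an activating subunit of the decapping complex, is described here without a test, since it was chosen for its difference. Its brighter probe had -1.44, -1.28 and -1.41 on the IL-4 arrays, against -0.15, 0.14 and 0.11 on the PBS arrays. As processed signal before scaling these were 267, 354 and 277 with IL-4, against 788, 744 and 782 with PBS. The dimmer probe had -1.57, -1.30 and -1.38 on the IL-4 arrays, against -0.22, 0.09 and 0.07 on the PBS arrays. On both probes every IL-4 array was more than 1 log2 unit below every PBS array, and PBS replicate 1 was the lowest PBS array.

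The log2 difference of Dcp1b was -1.41 ± 0.12 on the brighter probe and -1.40 ± 0.13 on the dimmer one (SE, n = 3 each), so that the signal was 2.66-fold and 2.64-fold lower with IL-4. Within slide 1 the differences were -1.22 and -1.20. The 3 IL-4 arrays lay -1.29, -1.12 and -1.26 from PBS replicate 1 on the brighter probe, and -1.35, -1.09 and -1.17 on the dimmer one. Among the 35979 tested probes the 2 probes had the 6th and 10th lowest differences, ranks that follow from how the gene was chosen. Both probes carry the same accession in the files and their sequences were not used here, so they may not be independent readings of the transcript.

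Dcp1a, the paralog of Dcp1b, had -1.70, -1.65 and -1.75 on the IL-4 arrays, against -1.65, -1.54 and -1.45 on the PBS arrays. The groups overlapped by a small margin, and the log2 difference was -0.15 ± 0.10 (95% interval -0.38 to 0.08, adjusted p = 0.31, limma). Dcp2, the catalytic subunit, had -2.54, -2.44 and -2.40 on the IL-4 arrays, against -2.47, -2.16 and -2.24 on the PBS arrays. Its log2 difference was -0.17 ± 0.11 (adjusted p = 0.31, limma), and within slide 1 it was 0.0083. The log2 ratio of Dcp1b to Dcp1a averaged 0.32 ± 0.06 with IL-4 and 1.58 ± 0.10 with PBS (SD, n = 3 each), and the ratio of Dcp1b to Dcp2 averaged 1.08 ± 0.09 with IL-4 and 2.32 ± 0.03 with PBS. Within slide 1 these ratios differed by -1.18 and -1.23. On the same arrays the signal of Dcp1b differed between the groups by more than that of Dcp1a or Dcp2. PBS arrays of both slides lay on one side. These ratios too are descriptions, since Dcp1b was chosen for its difference.

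**Figure D2:**
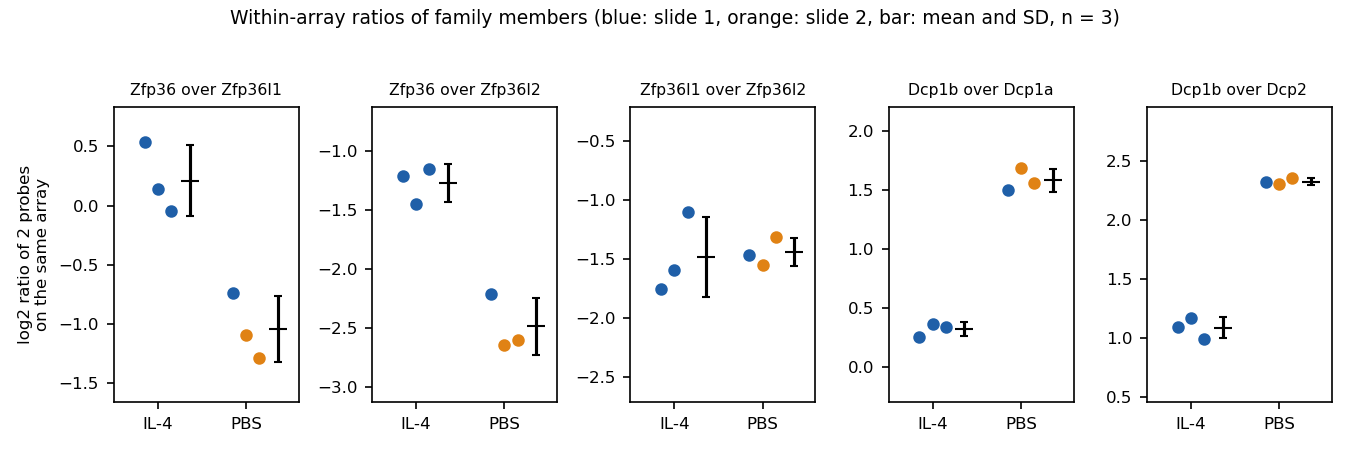
The vertical axes give the log2 ratio of 2 probes on the same array, with IL-4 on the left and PBS on the right, blue points for slide 1, orange points for slide 2 and black bars for the mean and SD of 3 arrays. The IL-4 arrays stand above the PBS arrays for Zfp36 over Zfp36l1 and over Zfp36l2, below them for Dcp1b over Dcp1a and over Dcp2, and overlap them for Zfp36l1 over Zfp36l2.

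The same stretch before the RefSeq start of Dcp1b, at chr6:119175003-119175252 on the plus strand of GRCm38.p6, is shown because Dcp1b had the largest difference of the 10 genes.
Dcp1b: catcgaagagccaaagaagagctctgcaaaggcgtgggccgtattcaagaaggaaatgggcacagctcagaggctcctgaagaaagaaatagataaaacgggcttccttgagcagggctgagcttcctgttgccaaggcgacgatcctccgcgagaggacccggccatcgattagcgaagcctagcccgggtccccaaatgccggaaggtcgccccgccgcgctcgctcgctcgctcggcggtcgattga
It held no match to any of the 7 motifs, hence no capitals, and 59.6% of its bases were G or C, against 64.8% for Zfp36, 48.4% for Zfp36l1 and a median of 52.4% over all windows. That the letters of these motifs are not in this window says nothing about the factors themselves. RefSeq windows were matched for 7 of the 10 genes, and not for Zfp36l2, Dcp2 and Cnot1.

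Xrn1, the exonuclease that digests decapped mRNA, had -2.91, -3.12 and -2.90 on the IL-4 arrays, against -3.02, -3.28 and -3.36 on the PBS arrays. Its value on PBS replicate 1 lay among the IL-4 arrays. The log2 difference was 0.24 ± 0.13 (95% interval -0.05 to 0.53, adjusted p = 0.21, limma), and 0.04 within slide 1. Without PBS replicate 1 it was 0.34 and passed (adjusted p = 0.037, limma). In that fit all IL-4 arrays are from slide 1 and both PBS arrays from slide 2, so slide and treatment cannot be told apart, and 42.4% of all genes passed. Cnot1 had 3.67, 3.51 and 3.54 on the IL-4 arrays, against 3.48, 3.73 and 3.53 on the PBS arrays. Its log2 difference was -0.0028 ± 0.11 (95% interval -0.26 to 0.25, adjusted p = 0.99, limma).

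**Figure D3:**
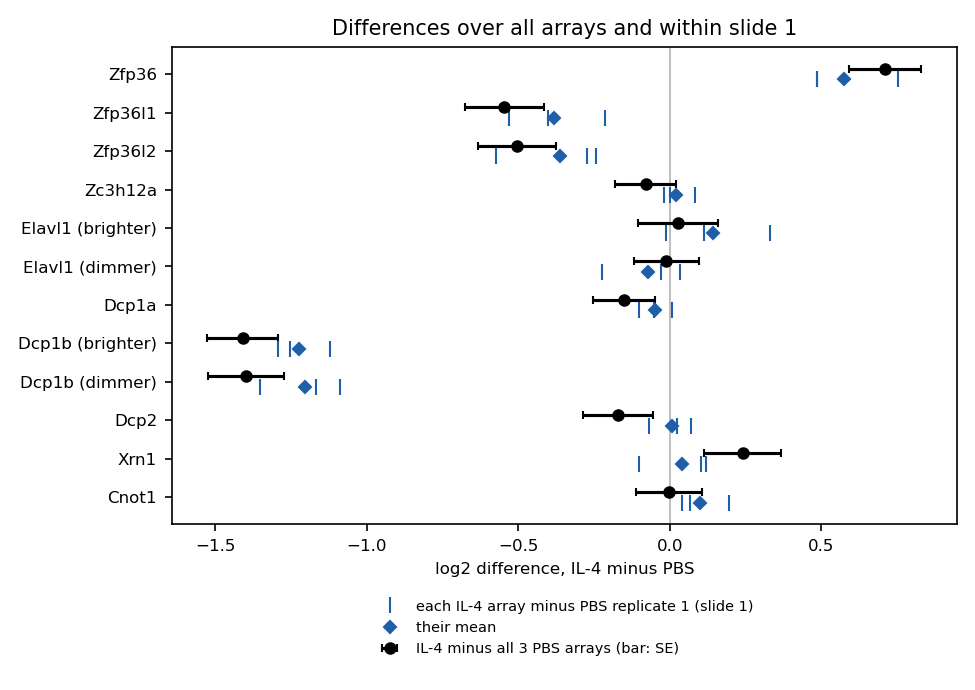
The horizontal axis gives the log2 difference, IL-4 minus PBS, for each of the 12 probes. Black points with SE bars use all 3 PBS arrays, blue ticks each IL-4 array minus PBS replicate 1, and blue diamonds the mean of the ticks. The ticks keep to one side of 0 for Zfp36 (0.49 to 0.75), Zfp36l1, Zfp36l2, both probes of Dcp1b (-1.35 to -1.09) and Cnot1, and straddle 0 for the others.

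Over all 29752 genes or unnamed transcripts tested, each by its brightest probe, 3.99% passed the test in either direction, 1.1% higher and 2.9% lower with IL-4. Of the 10 genes, Zfp36 was higher, Dcp1b was lower, and 0 of the other 8 passed, though 2 had an unadjusted p under 0.05 in limma (Zfp36l1 and Zfp36l2). Since Zfp36 and Dcp1b were chosen from this comparison, nothing is read from their count. The groups did not overlap for 4 of the 10 genes, 1 higher and 3 lower, while they did not overlap for 38.5% of all genes (18.7% higher and 19.8% lower). The median log2 difference was -0.12 over the 10 genes and -0.05 over all genes. PBS replicate 1 differed from the mean of PBS replicates 2 and 3 by 0.20 for Zfp36, -0.25 for Zfp36l1, -0.21 for Zfp36l2 and -0.28 for the brighter probe of Dcp1b, in each case on the side of the IL-4 arrays, and by -0.08 as the median over all genes.

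Beyond the 10 genes, 87 other genes of the decay machinery were tested, and 2 of them, or 2.30%, passed, both lower with IL-4. Of all genes 3.99% passed, 2.9% as lower, so the share in the machinery was no larger than that over all genes. Rc3h1, which encodes Roquin-1, a protein that binds stem-loops in cytokine mRNAs and recruits CCR4-NOT, had 0.79, 0.97 and 0.77 on the IL-4 arrays, against 1.32, 1.58 and 1.45 on the PBS arrays. It fell by 0.61 log2 units (SE 0.11, limma adjusted p = 0.04), by 0.47 within slide 1, and its dimmer probe gave -0.23. Dis3l, a catalytic subunit of the cytoplasmic exosome, had -0.52, -0.51 and -0.55 on the IL-4 arrays, against 0.02, 0.13 and -0.06 on the PBS arrays. It fell by 0.56 (SE 0.10, adjusted p = 0.036, limma), and by 0.55 within slide 1. For both genes the call was lost without any one of the arrays other than PBS replicate 1 (limma adjusted p between 0.13 and 0.18), with differences from -0.67 to -0.51. It was lost as well with slide as a block in limma (adjusted p = 0.30 for Rc3h1 and 0.22 for Dis3l).

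By role, of 16 other AU-rich element binding proteins and stability regulators 1 fell and 0 rose, with a median log2 difference of -0.18. Of 18 other deadenylation genes 0 passed at a median of -0.25, and of 17 other decapping genes 0 passed at a median of -0.08. Of 19 other genes of the exonucleases, the exosome and the SKI complex 1 fell, at a median of -0.02. Of 10 genes of nonsense-mediated decay and 7 of miRNA silencing 0 passed, at medians of -0.13 and -0.09. These calls are from the limma fit over all probes, in which 1.1% of all genes passed as higher and 2.9% as lower. The median over all genes was -0.05. With Cnot1 included, the median of the 19 deadenylation genes was -0.24 over all arrays and -0.02 within slide 1, and PBS replicate 1 lay -0.30 from the other PBS arrays. Without PBS replicate 1, where slide and treatment cannot be told apart, 12 of the 19 deadenylation genes passed as lower and 1 as higher, and of all 97 genes of these 6 lists 38 passed as lower and 7 as higher. Over all genes 22.9% were lower and 19.5% higher in that fit.

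Among 16 short-lived mRNAs known as targets of tristetraprolin or Regnase-1, 3 rose and 0 fell in the same fit, in which 1.1% of all genes rose and 2.9% fell. Without PBS replicate 1, where slide and treatment cannot be told apart, 7 of the 16 passed as higher and 0 as lower, against 19.5% and 22.9% of all genes. Il6, the interleukin-6 gene, rose by 1.44 ± 0.20, Ccl2, a monocyte chemoattractant, by 0.93 ± 0.14, and Ptgs2, the inducible cyclooxygenase, by 0.76 ± 0.14 (adjusted p = 0.026, 0.028 and 0.04, limma). Within slide 1 they differed by 1.20, 1.11 and 1.05. The median of the 16 was 0.29 over all arrays and 0.29 within slide 1, against -0.05 and 0.0055 for all genes. Each of the 3 calls was lost without any one array other than PBS replicate 1 (limma adjusted p between 0.10 and 0.16), and with slide as a block (limma adjusted p = 0.23 for Il6, 0.13 for Ccl2 and 0.071 for Ptgs2). Tnf, the textbook target of tristetraprolin, differed by 0.09 ± 0.13 (adjusted p = 0.64, limma). Of the kinases and phosphatase that act on tristetraprolin, Mapk14, Mapkapk2, Mapkapk3 and Ppp2ca, 0 of 4 passed. Their median was -0.19 over all arrays and -0.05 within slide 1.

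**Figure D4:**
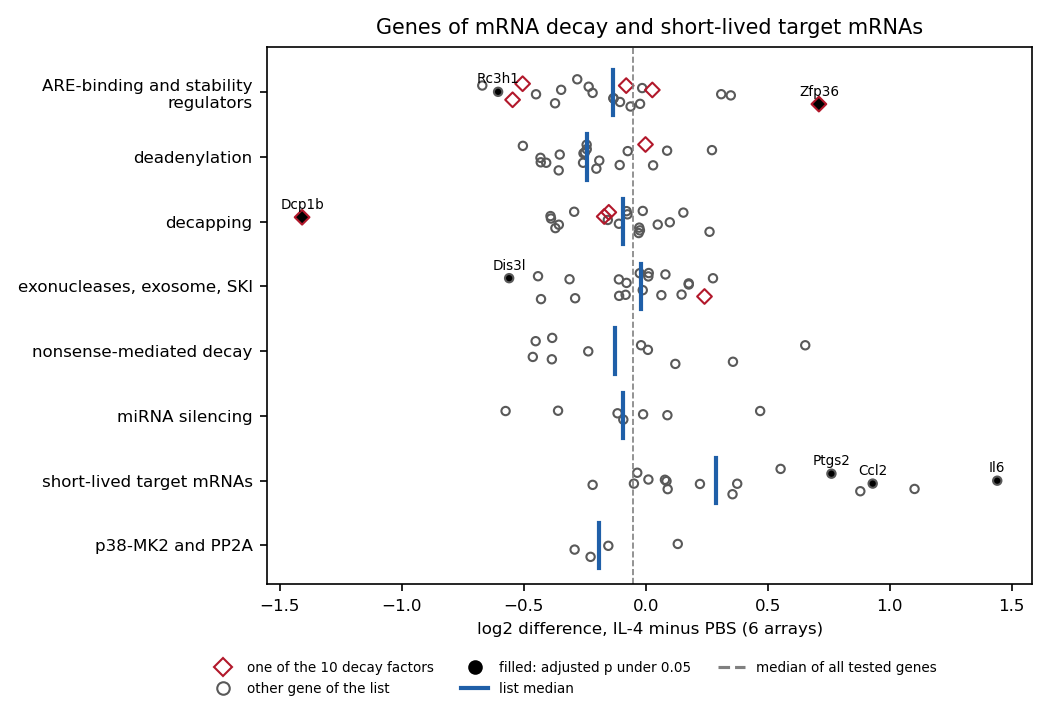
The horizontal axis gives the log2 difference, IL-4 minus PBS over 6 arrays, for each tested gene of 8 lists, 1 list a row, with red diamonds for the 10 decay factors, filled symbols for adjusted p under 0.05, a blue bar for the list median and a dashed line for the median of all genes. Zfp36 (0.71) and Dcp1b (-1.41) lie at the ends of their lists. Both were chosen for their differences, so neither their place nor their filling is read as a test. The short-lived target mRNAs have a median of 0.29.

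The 5 genes whose values over the 6 arrays followed Zfp36 most closely, among genes spanning at least 1 log2 unit, were Lrit1, Socs1, Kcna5, Ly6g6c and Tm4sf5, with Pearson correlations of 0.993, 0.991, 0.989, 0.986 and 0.986. For Dcp1b they were Dph6, Ctdsp2, Fam131a, Mgst2 and Bmf, with correlations of 0.997 or above. Correlations of 0.95 or more were reached by 55 of 2269 genes for Zfp36 and by 204 of 2268 for Dcp1b. All points share the same 6 arrays and their slide layout, so these values only describe likeness. Socs1, a feedback inhibitor of cytokine receptor signalling, differed by 1.17 on the log2 scale and Mgst2, a microsomal glutathione S-transferase, by -1.41.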

How the data were processed

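Spot intensity values were deposited by the authors as output of Agilent Feature Extraction 11.0.1.1 on single-colour arrays, per the file headers, with no step that equalises arrays. A value table of the authors, whose columns appear from their values to be log2 and share a median of 6.92, served as an alternative, and how it was normalized is not stated in the labels.

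Control and outlier-flagged spots were left out, copies of a probe averaged, and the log2 processed signal set relative to the 75th percentile of each array. A probe was tested if all arrays of either group had it well above background (35979 probes), with limma 3.58.1 (lmFit, eBayes; R 4.3.3), IL-4 minus PBS, with Benjamini-Hochberg adjustment over all of them and a threshold of 0.05. A gene stood for its brightest probe. Symbols came from accessions matched to RefSeq (GRCm38.p6), which named 69.1% of probes. The main limma fit was tested on simulated data with independent noise and no slide effect. That test therefore does not cover the slide layout of these arrays. The genes, lists and tests were chosen with earlier results of these data known. Named were the 10 genes, called genes of the lists (at most 8 each), and the 5 genes most like Zfp36 and Dcp1b. Zc3h12d, Igf2bp1 and Il12b were not analysed here. Alternatives were slide or replicate number as a block, slide 1 alone, other scalings, normexp (offset 50), the authors' table, other filters, 1 probe a gene, and leaving out each array. For normexp, the median spot signal stood in for the mean.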

Additional observations from a re-analysis of the deposited data

How the results depend on the processing

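The counts of probes that passed depended strongly on the processing. In the fit as reported 354 probes were higher and 1049 lower with IL-4. The counts were 7 and 4 with slide as a block, 1 and 0 on slide 1 alone, 648 and 1601 with scaling to the median, 1233 and 2492 with quantile normalization, 2336 and 2473 with normexp, 955 and 2207 with the authors' table, 5 and 13 without a filter on dim probes, and 2050 and 2468 for probes well above background on all arrays. They ranged from 0 to 6483 higher and from 0 to 8460 lower when 1 array was left out, with the top of both ranges without PBS replicate 1. With the brightest probe of each gene only, they were 240 and 757. The titles share replicate numbers, but deviations of same-numbered samples correlated at 0.08, -0.03 and 0.30, so the numbers were not taken as pairs, and not every sample was closest to its own number. The fit with a replicate block gave 1940 and 2496, and Zfp36l1 then passed at -0.55. The cause of these changes was not tested.

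Zfp36 stayed between 0.57 and 0.78 and Dcp1b between -1.50 and -1.22 under all 16 alternatives. Dcp1b was -1.22 with slide as a block and on slide 1 alone, and -1.26 with normexp. Leaving out 1 array gave 0.62 to 0.78 for Zfp36, -1.50 to -1.35 for Dcp1b, -0.63 to -0.47 for Zfp36l1, -0.58 to -0.40 for Zfp36l2, 0.17 to 0.34 for Xrn1, -0.067 to 0.12 for Elavl1 and -0.055 to 0.072 for Cnot1. Zfp36l1 also passed with median scaling (-0.56), quantile normalization (-0.53), normexp (-0.47), the authors' table (-0.50) and all-array detection (-0.55). Zfp36l2 passed with quantile normalization (-0.50), normexp (-0.47), the authors' table (-0.47) and all-array detection (-0.50). Neither gene passed with slide as a block (adjusted p = 0.47 for Zfp36l1 and 0.50 for Zfp36l2, limma). Both also missed the threshold without any one array other than PBS replicate 1 (limma adjusted p between 0.14 and 0.20). In both slide-restricted fits the sign changed for Zc3h12a (0.022), Dcp2 (0.0083) and Cnot1 (0.10), none of which passed in any fit. Without PBS replicate 1, where slide and treatment cannot be told apart, Zfp36l1 (-0.63), Zfp36l2 (-0.58) and Xrn1 (0.34) passed.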

Other observations

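Some genes of mRNA decay had probes that pointed in opposite directions, noticed after their values were seen. Ago4, an Argonaute gene of miRNA silencing, had a log2 difference of 0.47 on its brightest probe and -0.46 on another. Cnot6l, a deadenylase subunit, had -0.43 on its brightest probe and 0.17 on another. Other genes did so too, among them Ago2 (-0.09 and 0.80), Khsrp (0.31 and -0.29) and Btg1 (0.27 and -0.28), brightest probe first. None of these genes passed on the brightest probe, the only one that the list counts and medians use. Smg8, a regulator of the kinase of nonsense-mediated decay, differed by 0.65 over all arrays and by 0.18 within slide 1, and did not pass (adjusted p = 0.077, limma).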
